A study of Mus musculus with 2 samples.

Results

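Arginine metabolism was described through 5 genes, Arg1, Ass1, Slc7a2, Odc1 and Nos2, found by symbol among the 28692 genes measured. The data were droplet single-cell RNA profiles of cells washed from the mouse peritoneal cavity, with 1 library from Xbp1dIEC mice and 1 from WT mice. In Xbp1dIEC mice the gut epithelium lacks Xbp1, which encodes a factor that drives genes of the unfolded protein response. All mice were C57BL/6 males, germ-free (raised without microbes) and 10 weeks old, and each library pooled cells of 4 mice. The promoter that drove the deletion is not given in the sources used here. The deletion is in another tissue, so Xbp1 in peritoneal cells gives no check of the genotype label. The genes were picked because of their levels in these 2 libraries, so every value below is a description. With 1 library per genotype no test between genotypes was possible, and all 95% intervals cover counting error only.

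Arginine enters cells through cationic amino acid transporters, among them the product of Slc7a2, or is rebuilt from citrulline by argininosuccinate synthase (Ass1) and argininosuccinate lyase (Asl). Arginase 1 (Arg1) splits arginine into urea and ornithine, and ornithine decarboxylase (Odc1) turns ornithine into putrescine, the first polyamine. Inducible nitric oxide synthase (Nos2) uses the same arginine to make nitric oxide, and the choice between arginase and Nos2 is a textbook contrast between macrophage states. On GRCm38 (mm10), by the GENCODE M21 annotation, Arg1 lies at chr10:24915221-24927484 on the minus strand. The others lie on the plus strand: Ass1 at chr2:31470207-31520672, Slc7a2 at chr8:40862396-40922308, Odc1 at chr12:17544794-17551505 and Nos2 at chr11:78920787-78960254.

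The libraries held 49703442 unique molecular identifiers (UMIs, counted RNA molecules) over 6246 barcodes for Xbp1dIEC and 56229330 over 6204 for WT. Of 6117 Xbp1dIEC and 6055 WT cells kept after filters, 69.2% and 66.4% fell into 6 gates set on UMIs of marker genes, none of them an arginine gene. Large macrophages, the resident cells marked by Gata6 and Timd4, were 2339 in Xbp1dIEC and 2168 in WT. Folr2/Retnla cells, a smaller macrophage set, were 258 and 223, and Cd209a cells 60 and 46. B-1 cells, the innate-like B cells, were 569 and 359, B-2 cells, the conventional B cells, 764 and 918, and T cells, which served as a background type, 245 and 304. Levels of the genes that set the gates follow from the gate rules and are no check of them. They are given as CPM, the gene's UMIs scaled to a fixed total of UMIs for the gate (counts-per-million). Timd4 stood at 238 CPM in Xbp1dIEC and 237 in WT large macrophages, against 10.2 and 8.51 in Folr2/Retnla cells. Fcer2a stood at 106 and 151 CPM in B-2 cells and at 4.62 and 7.36 in B-1 cells, while Zbtb32, a B-1 marker, was still at 49.0 and 49.5 CPM in B-2 cells against 190.0 and 239 in B-1 cells. Large macrophages had a median depth of 7906 UMIs in Xbp1dIEC and 9429.5 in WT, and 1153 Xbp1dIEC barcodes had 5% or more mitochondrial UMIs, against 425 in WT. The libraries shared 58 barcode sequences.

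Arg1 was a gene of the resident macrophages, and its level there was lower in the Xbp1dIEC library. Large macrophages held 4752 Arg1 UMIs in Xbp1dIEC, a level of 257 CPM (95% Poisson interval 249 to 264), and 12232 in WT, a level of 582 CPM (572 to 593). On the log2 scale Xbp1dIEC over WT came to -1.18 (-1.23 to -1.13). The lower level was present in both macrophage gates: Folr2/Retnla cells had 500 UMIs at 231 CPM (211 to 252) in Xbp1dIEC and 1143 UMIs at 463 CPM (437 to 491) in WT, a log2 ratio of -1.003 (-1.16 to -0.85). The intervals of the libraries did not overlap in either gate. Ratio intervals below 0 were common over all genes, at 24.7% in large macrophages and 11.8% in Folr2/Retnla cells. Those above 0 made up 8.98% and 5.48%. Among 10882 genes with 30 or more UMIs in large macrophages, 73 (0.671%) had a ratio as low as that of Arg1, and the median over all of them was -0.07. In Folr2/Retnla cells 106 of 7663 genes (1.38%) had a ratio as low as that of Arg1 there, beside a median of -0.07. Restricted to cells under 5% mitochondrial UMIs, the Arg1 ratio was -1.21 in large macrophages and -1.03 in Folr2/Retnla cells.

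**Figure D1:**
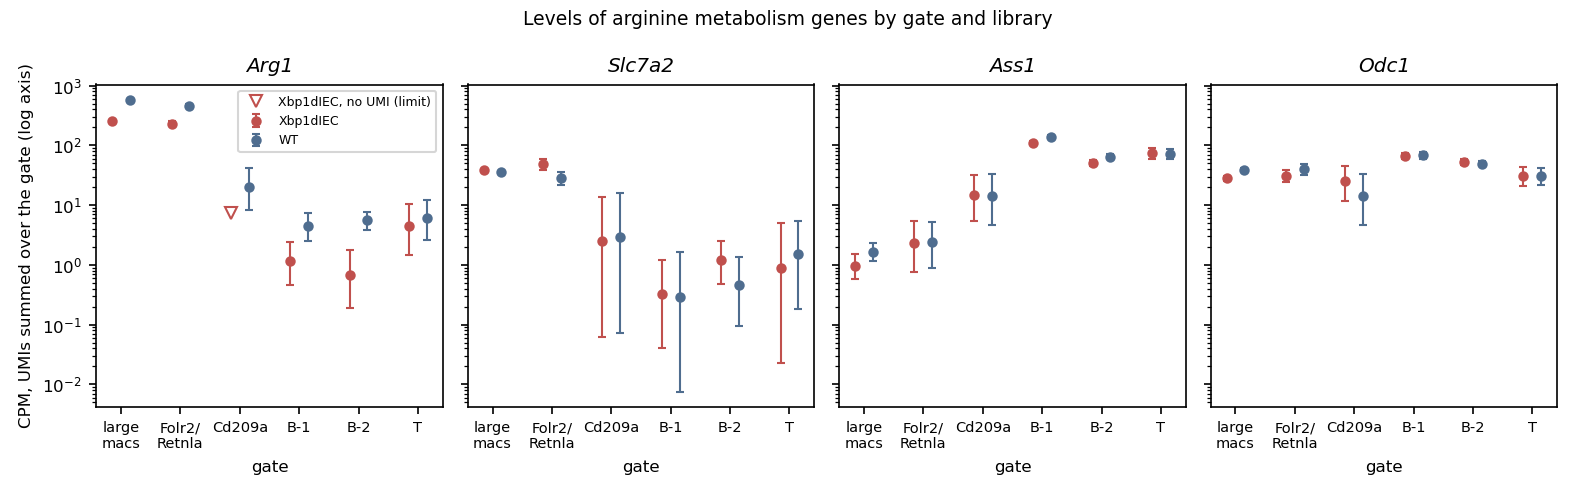
Levels of 4 arginine genes in 6 gates, as CPM of UMIs summed over the gate on a log axis, with Xbp1dIEC left of WT. Points are the summed levels of 1 library each, bars are 95% Poisson intervals, and the open triangle is the limit for a gate with 0 UMIs. Arg1 and Slc7a2 were highest in the large macrophage and Folr2/Retnla gates and Ass1 in the lymphocyte gates, and Odc1 was found in all of them.

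In each library Arg1 was somewhat higher in large macrophages than in Folr2/Retnla cells. That log2 ratio was 0.15 (0.02 to 0.29) in Xbp1dIEC and 0.33 (0.24 to 0.42) in WT. Cd209a cells, whose markers are those of dendritic cells and monocyte-derived cells, had 0 Arg1 UMIs in Xbp1dIEC, which allows a level of up to 7.47 CPM, and 7 in WT, at 20.3 CPM (8.15 to 41.7), of which 5 came from 1 cell. Under a wider gate on Cd209a alone, chosen after seeing the data, the 92 Xbp1dIEC and 83 WT cells held 20 and 64 Arg1 UMIs, or 29.9 and 104 CPM. The place of Cd209a cells in the order thus rested on where the gate was set. Cells that carried Folr2/Retnla or Cd209a set genes together with 2 or more UMIs of Gata6 and Timd4 were left ungated, and their Arg1 stood at 322 CPM in 83 Xbp1dIEC cells and 755 CPM in 152 WT cells. The 1205 Xbp1dIEC and 1418 WT cells that met no gate held 17.4% and 20.7% of each library's Arg1 UMIs, at 126 and 265 CPM.

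Lymphocytes held so few Arg1 UMIs that no expression can be read from them. B-1 cells had 7 UMIs in Xbp1dIEC (1.16 CPM) and 15 in WT (4.42 CPM), B-2 cells 4 (0.690 CPM) and 36 (5.57 CPM), and T cells 5 (4.49 CPM) and 8 (6.10 CPM). At 2000 UMIs per cell, an Arg1 UMI was found in 0% of Xbp1dIEC and 1.11% of WT B-1 cells, and in 1.22% and 0.987% of T cells. The T cell level was 1.75% of the large macrophage level in Xbp1dIEC and 1.05% in WT. The B-2 ratio of -3.01 (-4.96 to -1.53) was the lowest of 9262 genes in that gate. It set 4 UMIs against 36 and was -0.54 with 10 CPM added. Among macrophage markers in B-2 cells, Timd4 stood at 4.31 CPM in Xbp1dIEC and 6.03 in WT, and Csf1r at 6.56 and 8.82. Adgre1 stood at 14.0 and 13.8 CPM and Selp at 6.73 and 5.88 CPM, so the markers did not all run in the same direction. The part of free RNA in these Arg1 UMIs was not tested.

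Cell by cell, Arg1 was unevenly spread among large macrophages, and both the share of cells with a UMI and the number per cell were lower in Xbp1dIEC. At 2000 UMIs per cell, 28.3% of Xbp1dIEC large macrophages had an Arg1 UMI (exact Clopper-Pearson interval 26.4 to 30.1), against 48.9% in WT (46.8 to 51.02). Unthinned, the shares were 53.1% and 76.1%. Among thinned cells with a UMI the mean was 1.75 in Xbp1dIEC and 2.31 in WT. The upper tail differed most in relative terms, with 2 or more thinned UMIs in 11.7% of Xbp1dIEC and 26.9% of WT cells, and 5 or more in 1.03% and 4.80%. In unthinned counts the median cell had 1 Arg1 UMI in Xbp1dIEC and 3 in WT, the 90th percentile was 6 and 15, and the highest cell 34 and 88. The top 10% of cells held 59.6% of thinned Arg1 UMIs in Xbp1dIEC and 45.6% in WT. The variance of thinned UMIs over their mean ran the other way, at 2.16 in Xbp1dIEC and 2.61 in WT. Both measures depend on the mean, which was 0.496 and 1.13 thinned UMIs per cell, so no difference in evenness is read from them. Folr2/Retnla cells were similar, with a thinned UMI in 24.4% of Xbp1dIEC (19.3 to 30.1) and 36.3% of WT cells (30.01 to 43.0), and 5 or more in 0.388% and 4.04%.

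**Figure D2:**
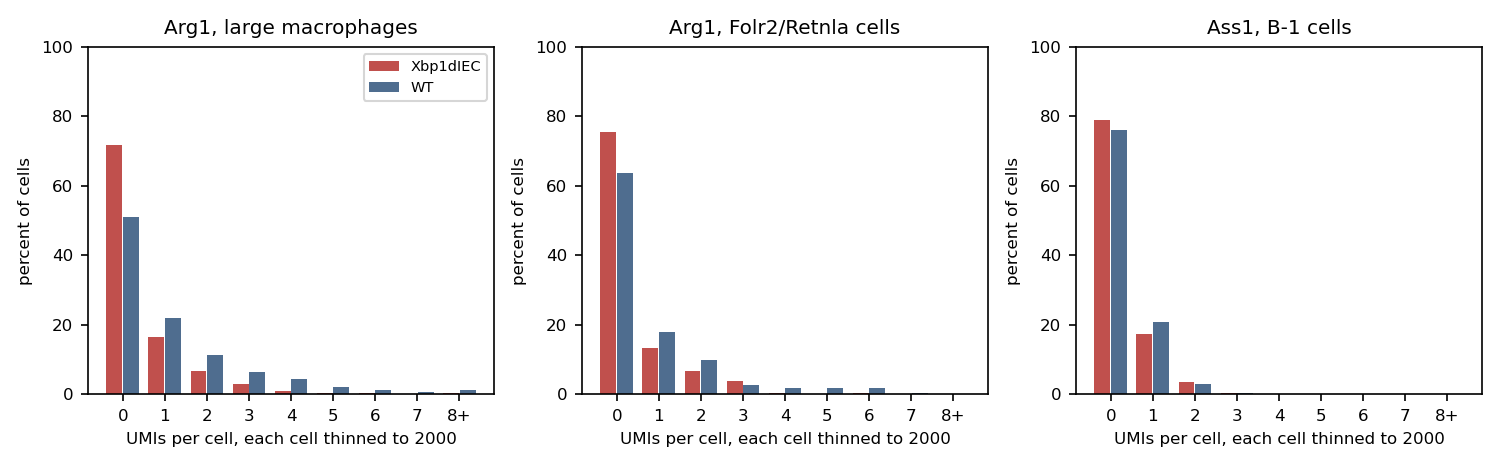
Percent of cells by UMIs per cell after every cell was thinned to 2000 UMIs, for Arg1 in large macrophages and Folr2/Retnla cells and for Ass1 in B-1 cells, with the Xbp1dIEC bar left of the WT bar. In large macrophages 71.7% of Xbp1dIEC and 51.1% of WT cells had no Arg1 UMI, whereas the bars for Ass1 in B-1 cells lay close together.

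The lower Arg1 level was present in each subset of large macrophages examined, though its size varied. Cells with 2 or more thinned UMIs of 12 cell cycle genes were 91 in Xbp1dIEC and 158 in WT, and had 210.5 CPM of Arg1 (183 to 241) and 329 CPM (305 to 354), a log2 ratio of -0.64 (-0.87 to -0.42). The remaining cells had 259 and 611 CPM, a ratio of -1.24 (-1.29 to -1.19). Cell cycle cells thus had less Arg1 than the others within each library, by -0.30 (-0.51 to -0.10) in Xbp1dIEC and -0.90 (-1.01 to -0.79) in WT on the log2 scale. The same held for 27 Xbp1dIEC and 35 WT cell cycle cells of the Folr2/Retnla gate, with 85.4 and 401 CPM against 255 and 479 CPM in the other cells. In the other subsets, cells with the named genes had 2 or more of their thinned UMIs together, and cells without them had fewer. Cells with Cxcl13, a chemokine for B cells, numbered 550 in Xbp1dIEC and 373 in WT. They had 283 and 668 CPM of Arg1, and cells without it had 249 and 566 CPM. Cells with Slpi and F7, a protease inhibitor and a coagulation factor, had 236 and 568 CPM, and cells without them 307 and 631 CPM. Cells with Wnt2 and Pi16 had 251 and 645 CPM. The log2 ratios of Xbp1dIEC over WT in the subsets by Cxcl13, by Slpi and F7, and by Wnt2 and Pi16 lay between -1.36 and -1.04.

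**Figure D3:**
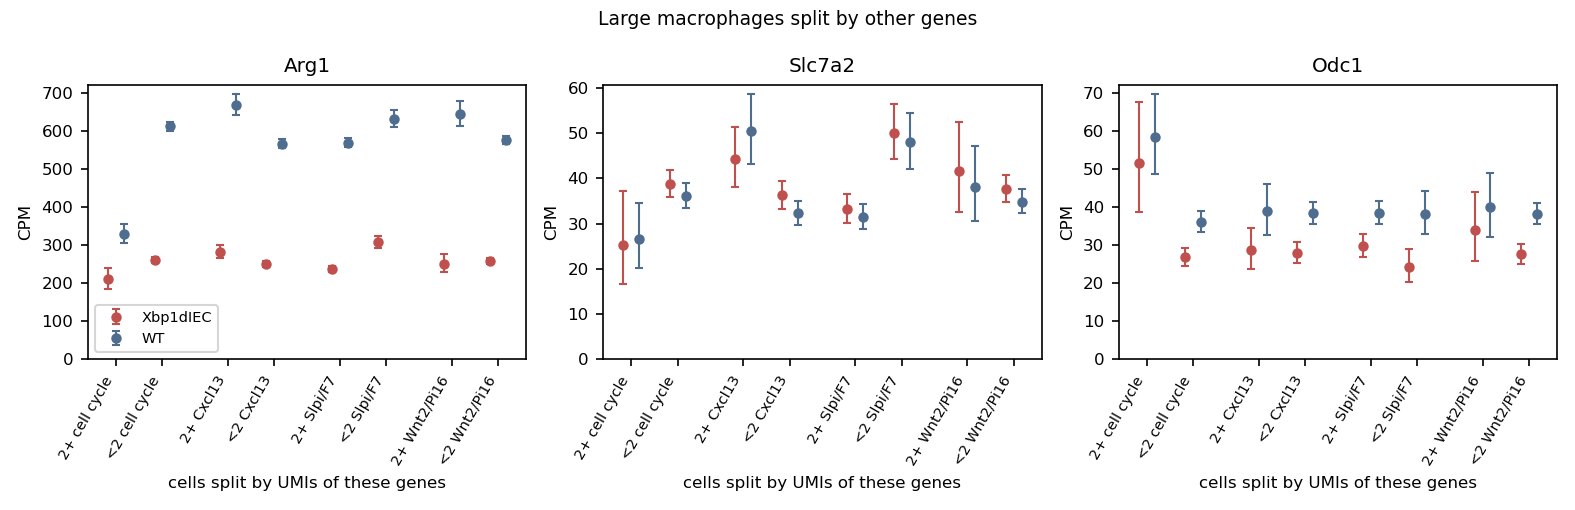
Levels of Arg1, Slc7a2 and Odc1 as CPM in large macrophages split by UMIs of genes outside the set. Each split was at 2 or more thinned UMIs, with Xbp1dIEC left of WT in each pair and 95% Poisson intervals. Arg1 was lower in Xbp1dIEC in all 8 subsets. Slc7a2 was higher in cells with fewer than 2 UMIs of Slpi and F7 in both libraries, and Odc1 was higher in cell cycle cells in both.

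The genes whose levels followed Arg1 most closely across large macrophages did so weakly. At 2000 UMIs per cell, Pearson r with Arg1 was 0.18 in Xbp1dIEC (2339 cells) and 0.21 in WT (2168 cells) for Pf4, which encodes a chemokine also made by platelets, the highest mean of 1822 genes compared. Ccl6, another chemokine, followed with 0.10 and 0.16. Lpl, lipoprotein lipase, had 0.12 and 0.08. Tmsb4x, Ftl1, Pycard, Timd4 and Calr completed the 8 nearest genes. Cells of 1 library share their pool and free RNA, and these are descriptions without a test. Lpl was at 275 CPM in Xbp1dIEC and 432 in WT (log2 ratio -0.65, -0.70 to -0.60) and Pf4 at 5371 and 7166 CPM (-0.42, -0.43 to -0.40). Timd4, which was among the gate markers, was at 238 and 237 CPM.

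Slc7a2, whose product CAT2 imports arginine, was, like Arg1, found mainly in the large macrophage and Folr2/Retnla gates. Large macrophages held 704 UMIs in Xbp1dIEC, at 38.03 CPM (35.3 to 41.0), and 740 in WT, at 35.2 CPM (32.7 to 37.9), a log2 ratio of 0.11 (-0.04 to 0.26). That interval included 0. Folr2/Retnla cells had 104 UMIs at 48.1 CPM (39.3 to 58.3) in Xbp1dIEC and 70 at 28.4 CPM (22.1 to 35.9) in WT, a log2 ratio of 0.76 (0.31 to 1.22), so that Slc7a2 stood higher there in Xbp1dIEC while Arg1 stood lower. Of 7663 genes measured in that gate, 1.97% had a ratio as high. Without cell cycle cells it was 0.60 (0.13 to 1.07). The order of the macrophage gates differed between libraries: the log2 ratio of large macrophages over Folr2/Retnla cells was -0.34 (-0.64 to -0.03) in Xbp1dIEC and 0.31 (-0.04 to 0.69) in WT. No lymphocyte gate held more than 7 Slc7a2 UMIs, and Cd209a cells held 1 in each library.

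Slc7a2 was sparse in single cells, with a UMI at 2000 UMIs per cell in 7.74% of Xbp1dIEC (6.69 to 8.90) and 6.23% of WT large macrophages (5.25 to 7.33), against 0.176% and 0.279% of B-1 cells. Within large macrophages it was lower in cells with Slpi and F7 in both libraries, at 33.2 CPM in Xbp1dIEC and 31.4 in WT, against 50.03 and 48.0 CPM in cells without them. It was higher in Cxcl13 cells, at 44.3 CPM in Xbp1dIEC and 50.5 in WT, against 36.3 and 32.3 CPM in the rest. Both splits gave within-library intervals that excluded 0. A Slc7a2 UMI was found in 9.08% of Xbp1dIEC large macrophages with an Arg1 UMI (6.998 to 11.5) and 7.21% of those without (6.02 to 8.55). In WT the shares were 6.89% (5.44 to 8.58) and 5.60% (4.32 to 7.12). The share was thus higher with Arg1 in both libraries, with overlapping intervals, and Pearson r between the genes was 0.038 in Xbp1dIEC (2339 cells) and 0.047 in WT (2168 cells). Correlations this weak in sparse counts are given as values only.

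Ass1 had nearly the opposite distribution: among the 6 gates it was highest in the lymphocyte gates. B-1 cells held 659 UMIs in Xbp1dIEC, at 109 CPM (101 to 117), and 470 in WT, at 138 CPM (126 to 151). T cells followed with 73.7 (58.6 to 91.5) and 72.4 CPM (58.6 to 88.5), and B-2 cells with 51.3 (45.6 to 57.4) and 65.0 CPM (58.9 to 71.5). With these gates B-1 cells lay above B-2 cells by a similar amount in both libraries. The log2 ratio was 1.09 (0.89 to 1.29) in Xbp1dIEC and 1.09 (0.90 to 1.28) in WT, for B-1 over B-2 cells. B-1 cells lay above T cells by 0.56 (0.23 to 0.91) and 0.94 (0.61 to 1.27). T cells lay above B-2 cells by 0.52 (0.15 to 0.88) in Xbp1dIEC, and in WT the interval of that ratio included 0 (0.16, -0.18 to 0.48). Where Ighd was not counted among the B-2 genes, a choice made after seeing the data, B-2 cells numbered 189 in Xbp1dIEC and 287 in WT. They had 43.8 and 46.5 CPM of Ass1, and B-1 cells then had 95.1 and 122 CPM, so the similar amount rested on the gate. B cells that met neither the B-1 nor the B-2 rule lay between them, with 81.1 CPM in Xbp1dIEC and 95.7 in WT.

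Macrophages held little Ass1. Large macrophages had 18 UMIs in Xbp1dIEC (0.972 CPM) and 35 in WT (1.67 CPM), 112-fold and 83.1-fold below B-1 cells, and a UMI in 0.171% and 0.231% of cells at 2000 UMIs per cell. That level was 0.894% and 1.20% of the B-1 level. The part of free RNA in so few UMIs was not tested. Folr2/Retnla cells had 5 and 6 UMIs. Cd209a cells had 6 UMIs in Xbp1dIEC, each in a cell of its own, at 14.9 CPM (5.48 to 32.5), and 5 in WT, at 14.5 CPM (4.70 to 33.8), of which 4 came from 1 cell. Under the wider gate on Cd209a alone they had 27 UMIs in Xbp1dIEC, at 40.4 CPM (26.6 to 58.7), of which 13 came from 1 cell. In WT that gate held 19 UMIs, at 30.8 CPM (18.5 to 48.1). The Ass1 level of Cd209a cells thus also rested on where the gate was set. Cells that met no gate held 18.6% of Ass1 UMIs in Xbp1dIEC and 30.5% in WT, at 34.4 and 38.9 CPM.

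Ass1 was somewhat lower in the Xbp1dIEC library in both B cell gates, but neither difference held under all settings. The log2 ratio was -0.35 (-0.52 to -0.17) in B-1 cells and -0.34 (-0.56 to -0.12) in B-2 cells, against 0.03 (-0.42 to 0.47) in T cells. Ratios as low were common: 13.6% of 8818 genes measured in B-1 cells and 15.7% of 9262 in B-2 cells had one. Ratio intervals below 0 made up 9.98% and 13.8% of genes in these gates. With gates set on thinned UMIs, which left 122 Xbp1dIEC and 106 WT B-1 cells, the B-1 ratio was 0.07 (-0.31 to 0.46). Without Ighd among the B-2 genes the B-2 ratio was -0.08 (-0.62 to 0.43). In single B-1 cells an Ass1 UMI was found at 2000 UMIs per cell in 20.9% of Xbp1dIEC (17.6 to 24.5) and 24.0% of WT cells (19.6 to 28.7), with overlapping intervals. Unthinned, 56.8% and 59.1% had one, with a median of 1 UMI in both libraries and a highest cell of 10 and 11.

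Among B-1 cells, Ass1 differed between the states examined in Xbp1dIEC, and the cells of these states were few in both libraries. The Ahnak2 state was described earlier in these same data with Ass1 among its genes. A higher Ass1 level in that state is therefore not an independent result. A state needed 2 or more thinned UMIs of its genes together, and more of them than of the other state's genes. The 23 Xbp1dIEC and 33 WT cells with Ahnak2 and Phgdh UMIs had 159 (114 to 215) and 141 CPM (101 to 193), and the 72 and 31 cells with Fbxw13, Prkar2b and Fgd2 UMIs 83.3 (64.1 to 106) and 124 CPM (87.0 to 172). Cells of the Ahnak2 state were above the other B-1 cells by 0.58 (0.09 to 1.03) on the log2 scale in Xbp1dIEC, and in WT the interval included 0 (0.03, -0.47 to 0.50). Cells of the Fbxw13 state were below the other Xbp1dIEC B-1 cells by -0.43 (-0.83 to -0.06) on the log2 scale, and in WT the interval included 0 (-0.17, -0.70 to 0.32). The genes nearest to Ass1 across B-1 cells were again weakly related, with Hsbp1, which encodes a heat shock factor binding protein, at r of 0.14 in Xbp1dIEC (569 cells) and 0.13 in WT (359 cells), the highest mean of 1611 genes. Lsp1, Anxa2, Lgals1, Nap1l1, Psma7, Actg1 and Vim followed. Anxa2, an annexin, was at 132 CPM in Xbp1dIEC and 226 in WT B-1 cells (log2 ratio -0.77, -0.91 to -0.62).

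**Figure D4:**
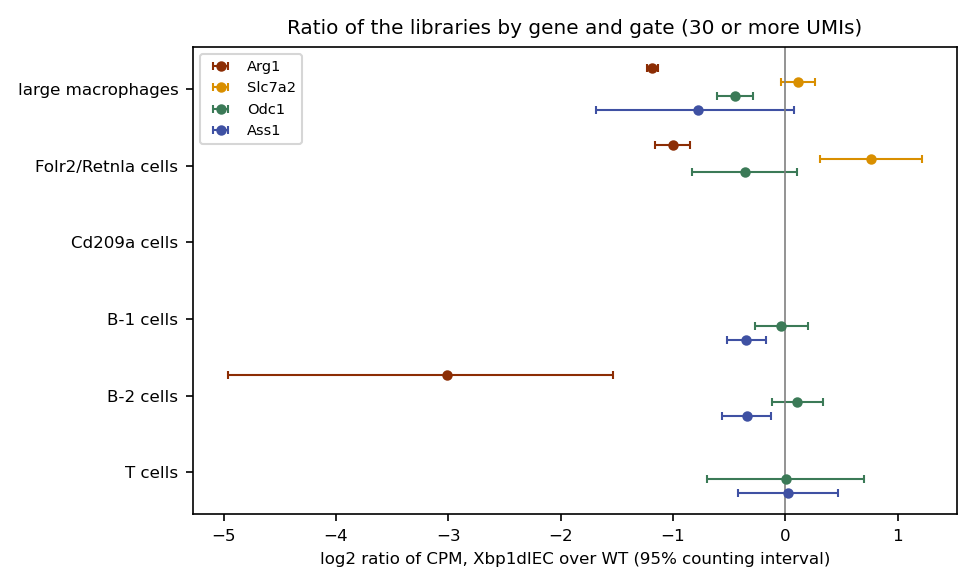
Log2 ratio of CPM, Xbp1dIEC over WT, for each arginine gene with 30 or more UMIs over both libraries in a gate, with 95% counting intervals. Arg1 lay below 0 in both macrophage gates and Slc7a2 above 0 in Folr2/Retnla cells. The wide Arg1 interval in B-2 cells rests on 4 Xbp1dIEC and 36 WT UMIs.

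Odc1, the entry to polyamine synthesis, was found in every gate and most in B cells. B-1 cells had 66.4 CPM in Xbp1dIEC (60.02 to 73.2) and 68.0 in WT (59.6 to 77.4), and B-2 cells 53.5 (47.7 to 59.8) and 49.7 CPM (44.4 to 55.4). T cells had 30.6 and 30.5 CPM, Folr2/Retnla cells 31.0 and 39.7 CPM, and large macrophages 28.1 (25.8 to 30.7) and 38.4 CPM (35.8 to 41.1). Cd209a cells had 24.9 and 14.5 CPM, from 10 and 5 UMIs. B-1 cells lay above large macrophages by 1.24 (1.05 to 1.43) in Xbp1dIEC and 0.83 (0.61 to 1.04) in WT on the log2 scale, and above B-2 cells by 0.31 (0.09 to 0.53) and 0.45 (0.20 to 0.70). Large macrophages and Folr2/Retnla cells did not differ beyond counting error in either library.

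The Odc1 level of large macrophages was lower in Xbp1dIEC, with a log2 ratio of -0.45 (-0.61 to -0.29) from 521 and 806 UMIs. Of 10882 genes measured in that gate, 879 (8.08%) had a ratio as low. The interval of the Odc1 ratio included 0 in Folr2/Retnla cells (-0.36, -0.83 to 0.10), B-1 cells (-0.04, -0.27 to 0.20), B-2 cells (0.11, -0.12 to 0.34) and T cells (0.00, -0.70 to 0.70). Single large macrophages had an Odc1 UMI at 2000 UMIs per cell in 5.47% of Xbp1dIEC (4.59 to 6.47) and 6.97% of WT cells (5.93 to 8.12), with overlapping intervals. Cell cycle cells stood apart, with 51.7 CPM in Xbp1dIEC (38.7 to 67.6) and 58.5 in WT (48.7 to 69.7), above the other large macrophages by 0.95 (0.51 to 1.36) and 0.70 (0.41 to 0.97) on the log2 scale. Within the same cells the CPM of Arg1 and Slc7a2 was lower than in the others. Cell cycle cells were 3.89% of Xbp1dIEC and 7.29% of WT large macrophages, and the Odc1 ratio without them was -0.43 (-0.60 to -0.26).

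Nos2 was all but undetected. It gave 0 UMIs in all 6117 Xbp1dIEC cells, and 1 UMI in all 6055 WT cells, in a large macrophage. In Xbp1dIEC large macrophages 0 UMIs among 18511861 allow a level of up to 0.162 CPM.

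Counting members past a log2 ratio of 0.5 in either direction gave Arg1 and Ass1 as lower among the 4 members measured in large macrophages, where 6.47% of all genes were lower and 2.62% higher by that much. The Ass1 value there, -0.78 (-1.68 to 0.08), came from 18 and 35 UMIs, and its interval included 0. In Folr2/Retnla cells Arg1 was past it downwards and Slc7a2 upwards among 3 members, where 10.6% of genes were lower and 6.39% higher. No member measured in B-1 cells was past it (6.93% of genes lower, 9.2% higher), nor in T cells (8.76% and 7.58%), and in B-2 cells Arg1 alone was, from 4 and 36 UMIs (7.85% and 4.94%). In Cd209a cells no member reached 30 UMIs (14.7% and 9.77%). Nothing is read from these counts, since the members were chosen on the same values.

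Of 46 other genes of arginine transport and metabolism, 37 had 30 or more UMIs in large macrophages. Of these, 3 were lower in Xbp1dIEC by more than 0.5 on the log2 scale and 0 higher, beside 6.47% and 2.62% of all genes. They were Gatm, which starts creatine synthesis from arginine, Aldh18a1, which makes the precursor of proline and ornithine, and Paox, a polyamine oxidase, all at under 7 CPM. In all 29 of the 37 ratios lay below 0, where 61.2% of all genes did. Of the intervals 19 lay below 0 and 0 above, beside 24.7% and 8.98% over all genes. The median was -0.19, beside -0.07 over all genes. Among transport genes, the arginine exchanger Slc7a7 had 12.9 CPM in Xbp1dIEC and 17.2 in WT (-0.41, -0.65 to -0.17). Its partner chain Slc3a2 had 33.5 and 43.5 CPM (-0.37, -0.52 to -0.23). Downstream of arginase, spermidine synthase Srm had 36.1 and 48.8 CPM (-0.43, -0.58 to -0.29). Oaz1, the antizyme that sends Odc1 protein to degradation, had 1340.2 and 1478 CPM (-0.14, -0.17 to -0.12). Eif5a, the factor that carries the spermidine-derived residue hypusine, had 494 and 612 CPM (-0.31, -0.35 to -0.27). The highest ratios among genes with 100 or more UMIs were those of Atp13a3, a polyamine transporter (0.21, -0.01 to 0.42), and Prmt5, an arginine methyltransferase (0.18, -0.07 to 0.43). The other arginase, Arg2, had 1 and 3 UMIs, and the urea cycle genes Otc and Cps1 had 0 in both libraries.

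Folr2/Retnla cells had 27 pathway genes measured, of which 4 were lower past 0.5 and 0 higher, beside 10.6% and 6.39% of all genes. The median was -0.26, beside -0.07 over all genes. Among them were Srm, Pycr3, which makes proline, and Prmt1, an arginine methyltransferase. In B cells Srm ran the other way. It had 63.2 CPM in Xbp1dIEC and 40.6 in WT B-1 cells (0.64, 0.35 to 0.93) and 52.3 and 32.2 CPM in B-2 cells (0.70, 0.44 to 0.96). Slc25a15, the mitochondrial ornithine carrier, had 14.2 and 8.25 CPM in B-1 cells (0.78, 0.15 to 1.45) and 15.7 and 8.97 CPM in B-2 cells (0.81, 0.32 to 1.31). With Slc7a5, a large neutral amino acid transporter, these made 3 of 30 pathway genes higher past 0.5 in B-1 cells and 3 of 33 in B-2 cells, and 2 and 3 were lower. Over all genes 9.2% were higher and 6.93% lower in B-1 cells, near the shares of the list, and 4.94% and 7.85% in B-2 cells. Asl, the enzyme that follows Ass1, had 10.2 and 13.8 CPM in B-1 cells (-0.44, -1.01 to 0.14) and 9.15 and 14.8 CPM in B-2 cells (-0.70, -1.21 to -0.20). The median over the list was -0.03 in B-1 cells, -0.14 in B-2 cells and -0.01 over 23 genes in T cells, where 2 were lower and 0 higher, beside 8.76% and 7.58% of all genes. The medians over all genes were 0.01, -0.05 and -0.00 in these gates.

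**Figure D5:**
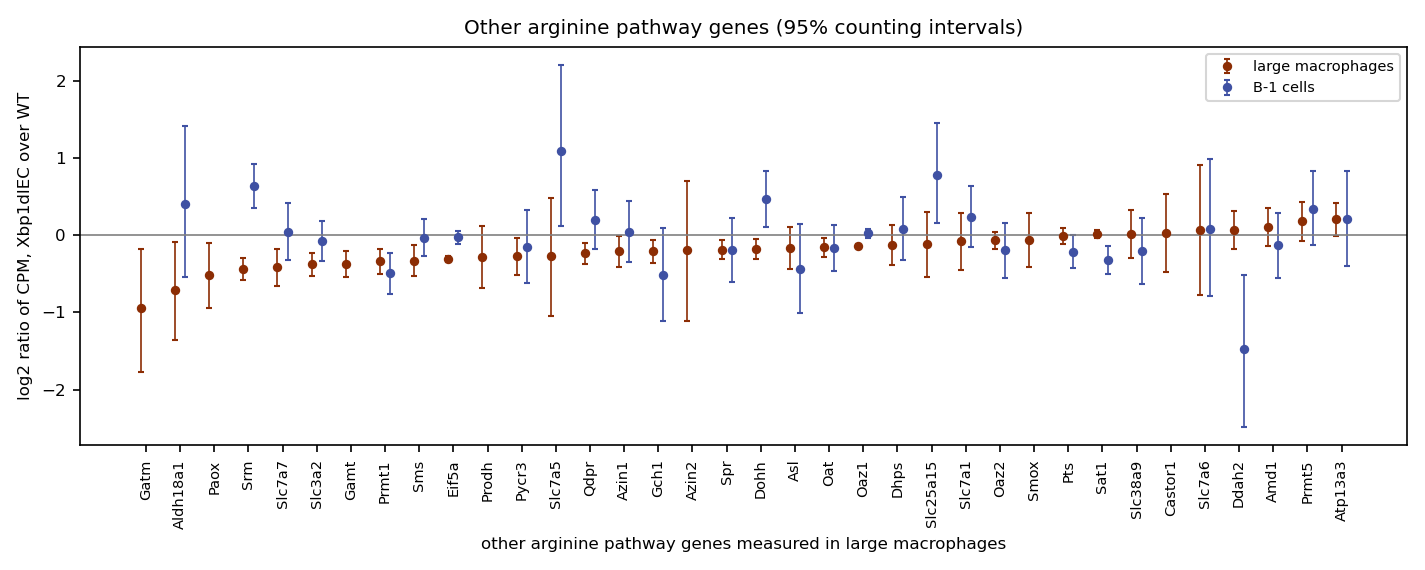
Log2 ratio of CPM, Xbp1dIEC over WT, of 36 of the 37 other arginine pathway genes measured in large macrophages, ordered by that ratio, with the B-1 value beside it where the gene was measured there. Bars are 95% counting intervals. Most large macrophage values lay below 0, with a median of -0.19 over all 37, and Srm lay below 0 in large macrophages and above 0 in B-1 cells.

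Known regulators of Arg1 and Nos2 were spread around 0. In large macrophages 19 of 20 were measured, 1 was lower past 0.5 and 0 higher, beside 6.47% and 2.62% of all genes. Their median was -0.00, beside -0.07 over all genes. The lower one was Tfec, a macrophage transcription factor, at 4.21 CPM in Xbp1dIEC and 7.91 in WT (-0.91, -1.31 to -0.51). Cebpb, whose product binds the Arg1 enhancer, had 1131 and 938 CPM (0.27, 0.24 to 0.30), and Stat6, which relays interleukin 4 signals, 38.03 and 39.8 CPM (-0.07, -0.21 to 0.08). In Folr2/Retnla cells Cebpb had 1273 and 873 CPM (0.54, 0.46 to 0.63), and it alone of the 18 regulators measured there was higher past 0.5.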

How the data were processed

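The deposited values are raw counts, that is UMIs per gene and barcode, without normalization, from a Chromium 3′ v2 kit with 8700 cells encapsulated per library. Per the submitters' processing notes, the build was mm10 and the tools were Seurat 2.3.0 and Cell Ranger 2.2.0. The annotation and barcode filter were not given in the sources used here. The depth was at least 2485 UMIs per barcode in Xbp1dIEC and 2597 in WT. Cells needed 500 UMIs, 200 genes and a mitochondrial share under 10%, which removed 20 Xbp1dIEC and 6 WT barcodes, and scrublet in scanpy 1.11.5 (expected rate 5%, Python 3.11.15, scipy 1.17.1) removed 109 and 144 doublets.

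Gates used unthinned UMIs of marker genes. Large macrophages needed 3 UMIs of Csf1r, Adgre1, Cd14 and Fcgr1 and 2 of Gata6, Timd4, Icam2, Garnl3 and Selp, and had to be in neither the Folr2/Retnla nor the Cd209a set. Folr2/Retnla cells needed 3 UMIs of Folr2, Retnla and Cbr2, and Cd209a cells 3 of Cd209a, Mgl2 and Ear2, both with at most 1 of Gata6 and Timd4. B cells needed 3 UMIs of B lineage genes, among them Cd79a, Cd79b and Ms4a1. Where a gene set needed 3 UMIs, 2 or more of its genes also had to be detected. Cd209a cells had to have a UMI of Cd209a itself. B-1 cells needed 2 of Bhlhe41, Zbtb32, Cd5, Ctla4 and Spn, and B-2 cells 2 of Fcer2a, Cr2 and Ighd, each more than of the other set. T cells needed 2 UMIs of Cd3d, Cd3e and Cd3g. Markers of other lineages were limited to 1 UMI (2 of myeloid genes in lymphocytes).

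UMIs were summed per gate and library into CPM with exact Poisson intervals. Log2 ratios had no added value and exact conditional binomial intervals, and shares had exact Clopper-Pearson intervals after thinning to 2000 UMIs per cell. A count of 0 allows 3 counts. UMIs from 3′ ends were not scaled by gene length. Pathway genes and regulators were named by the 4 highest and 4 lowest ratios at 100 or more UMIs, others being named by role or by passing 0.5. The members, gene lists and gates were chosen with earlier results of these data known. Some genes of the lists are not reported here. The calculation was checked on simulated counts. Alternatives changed filters, gates, scaling, added value and minimum.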

Additional observations from a re-analysis of the deposited data

Results flagged for a closer look

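The results given here have opposite signs, with counting intervals that excluded 0, in different gates. The difference between gates was not tested, and each rests on 1 library per genotype. Intervals that excluded 0 were common over all genes. In large macrophages 24.7% of genes had one below 0 and 8.98% one above, and in B-1 cells 9.98% and 9.23%. The share of all genes with opposite signs between gates was not counted, so nothing particular to the genes below is read from them. Srm, spermidine synthase, had a log2 ratio of Xbp1dIEC over WT of -0.43 in large macrophages and -0.76 in Folr2/Retnla cells, and of 0.64 in B-1 and 0.70 in B-2 cells. Dohh, which completes the hypusine residue of Eif5a, had -0.18 in large macrophages and 0.47 in B-1 cells. Oaz1, the Odc1 antizyme, had -0.14 in large macrophages, -0.10 in Folr2/Retnla cells and -0.057 in B-2 cells, and 0.27 in the 60 Xbp1dIEC and 46 WT Cd209a cells. Hif1a, the hypoxia factor, had -0.45 in Folr2/Retnla cells and 0.31 in B-1 cells.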

How the results depend on the processing

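Over 12 alternatives the log2 ratio of Arg1 stayed between -1.35 and -1.12 in large macrophages and between -1.07 and -0.81 in Folr2/Retnla cells, Odc1 in large macrophages between -0.46 and -0.34, and Slc7a2 in Folr2/Retnla cells between 0.60 and 0.84. The Arg1 ratio in large macrophages moved to -1.35 with gates on thinned UMIs, -1.12 with median-ratio scaling or the mean of per-cell CPM and -1.24 without cell cycle cells. With gates on thinned UMIs the Slc7a2 ratio in large macrophages was -0.23 and the Ass1 ratio in B-1 cells turned to 0.072; the cause was not tested. The Arg1 share of large macrophages was 53.1% in Xbp1dIEC and 76.1% in WT unthinned, 11.7% and 26.9% at 2 or more UMIs, and 51.4% in WT with gates on thinned UMIs. The Ass1 share of B-1 cells was 56.8% and 59.1% unthinned, 3.69% and 3.06% at 2 or more UMIs, and 25.4% in Xbp1dIEC with gates on thinned UMIs. Lower pathway genes in large macrophages numbered 5 with 1 UMI in each library as the minimum, 1 with 100 UMIs and 0 with 10 CPM added, and in B-1 cells 4, 0 and 0, with 1 higher with 10 CPM added. Lower regulators in large macrophages numbered 2 with 1 UMI as the minimum and 0 with 10 CPM added, and in Folr2/Retnla cells 2 with 1 UMI, with 4 higher under median-ratio scaling. Genes at a few CPM, such as Gatm, thus pass or miss the fold with the minimum chosen. No paired analysis was possible because each genotype has 1 library. Leaving out a library was not possible for the same reason. The size of the Arg1 difference between mice is unknown, since 4 mice were pooled in each library.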
